A study of Mus musculus with 74 samples.

Results

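Gata4, Gata5, Gata6, Foxa1, Foxa2 and Foxa3 are the 6 members of the GATA and FOXA transcription factor families that are known from the endoderm, the germ layer that lines the gut. They were taken by gene symbol from a table of RNA-seq read counts for 24015 gene symbols, and all 6 were found. The table covers 31 libraries of mouse gut epithelium in 15 groups, each of 2 libraries except a group of 3. Epithelium of forestomach (the squamous part of the mouse stomach), hindstomach (its glandular part) and small intestine was taken at E12, E14 and E16, and small intestine also at E18, all from untreated embryos of the CD1 strain labelled wild type (WT); at E12 and E14 the cell type label for small intestine is midgut.

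Libraries labelled as lacking Cdx2, a homeobox regulator of intestinal identity, came from small intestine of a mixed B6;129 background. They were Cdx2f/f; Shh-Cre embryos with deletion at E10, collected at E16 with no treatment (3 libraries), Cdx2f/f; Villin-Cre embryos with deletion at E13, collected at E16, and Cdx2f/f; Villin-Cre embryos with deletion at E15, collected at E18. In the last 2 groups the mice had been given 5 mg tamoxifen by gavage. Shh-Cre and Villin-Cre are drivers that act in gut epithelium. The adult libraries were ileal villus epithelium of the same mixed background: Cdx2f/f; Villin-Cre mice after 1 mg tamoxifen by injection on each of 5 days, and Cdx2f/f mice after the oil alone, which are the WT group, both killed 3 days after the last injection. All embryonic knockout comparisons therefore also compare strains, and those at E13 and E15 also tamoxifen against none, so that genotype, strain and treatment cannot be told apart in them. In the adult comparison the strain label is shared, but the knockout label cannot be told apart from tamoxifen and the Cre driver, which the WT mice lacked. The labels do not say whether libraries of a group came from separate litters, so p-values measure the spread between these libraries, which may be technical.

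GATA factors are zinc finger proteins that bind the letters GATA in DNA, and FOXA factors are forkhead proteins with a winged helix. Both families are called pioneer factors because they can bind their sites in closed chromatin and make them accessible to others. Foxa1 and Foxa2 act early in endoderm and overlap in function, and Foxa3 is best known from the liver. Gata4 is known for keeping the identity of the proximal small intestine and for its place in the glandular stomach, Gata6 acts along the whole small intestine, and Gata5 is the least studied of the 3 in gut.

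The sequence before the start site is shown for the FOXA genes, since these were the members that rose together in a knockout comparison described further on. RefSeq windows (build GRCm38.p6) were matched by symbol for 4 of the 6 members, Gata5 and the 3 FOXA genes, in 6 windows, since Foxa2 has 3 start sites. Each run gives the 250 bases before a start, 5′ to 3′ on the minus strand, on which all 3 genes lie. For Foxa2 the most upstream start was taken. Capitals mark matches to 3 motifs, searched on either strand. The motif taken for GATA factors was GATAA. For forkhead factors the letters GTAAACA were searched. The motif used for CDX factors was TTTATNG, whose reverse can share letters with the GATA motif.
Foxa1, chr12:57546112-57546361: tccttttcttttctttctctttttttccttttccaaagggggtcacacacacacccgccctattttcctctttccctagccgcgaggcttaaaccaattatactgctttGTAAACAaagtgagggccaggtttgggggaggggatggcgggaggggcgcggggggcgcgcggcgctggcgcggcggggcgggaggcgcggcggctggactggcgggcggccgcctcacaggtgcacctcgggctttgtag
Foxa2, chr2:148046970-148047219: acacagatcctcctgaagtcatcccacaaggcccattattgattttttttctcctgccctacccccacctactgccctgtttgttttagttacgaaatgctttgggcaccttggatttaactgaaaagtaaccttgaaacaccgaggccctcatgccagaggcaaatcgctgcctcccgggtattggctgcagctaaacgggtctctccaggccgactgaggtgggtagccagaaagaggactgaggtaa
Foxa3, chr7:19023540-19023789: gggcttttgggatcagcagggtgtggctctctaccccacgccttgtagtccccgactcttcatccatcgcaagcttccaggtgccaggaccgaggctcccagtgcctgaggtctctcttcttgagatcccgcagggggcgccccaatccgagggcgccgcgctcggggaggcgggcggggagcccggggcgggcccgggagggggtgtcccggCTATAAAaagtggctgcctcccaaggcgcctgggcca
The Foxa1 window holds 1 forkhead match, which begins 141 bases before the start, and such a match occurs in 3.2% of 32851 windows of the same length. The Foxa3 window holds 1 CDX match on the reverse strand, which begins 37 bases before the start, and 9.8% of all windows hold one. This match, CTATAAA, contains the letters TATAAA, so by sequence it cannot be told apart from a TATA box. The same holds for such matches within the 9.8%. No match to the 3 motifs lies in the Foxa2 window shown. Of the windows not shown, the one before the most downstream Foxa2 start holds 1 GATA match, present in 22.6% of all windows, and the other Foxa2 window and that of Gata5 hold none of the 3.

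The libraries held between 5970227 and 62463167 counted reads (median 21910062). A level is given as CPM, the count scaled to a common library size, after TMM scaling, which fits a factor per library so that most genes keep their level. Levels of different genes are not compared, since no gene lengths were used. Group differences were tested with edgeR's quasi-likelihood test over all genes that passed a filter on low counts, 17239 in the embryonic and 12444 in the adult libraries, and all 6 members passed in both. A member is written as called, risen or fallen where its Benjamini-Hochberg adjusted p over all these genes was under 0.05 and the log2 fold change reached 1 or −1. Errors of log2 fold changes are standard errors (SE). Where groups are said not to overlap, the share of all genes without overlap was not computed.

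Several groups went against their labels or stood apart. The libraries labelled E12 hindstomach held genes of the posterior gut: Hoxa10 at 98.9 and 114 CPM against at most 0.101 CPM in E12 forestomach and small intestine, Hoxd13 at 28.1 and 30.7 CPM against at most 0.0336 CPM, and Cdx2 at a mean of 131 CPM, near the 127 CPM of E12 small intestine, against at most 2.22 CPM in E12 forestomach. Pdx1, a gene of the distal stomach, duodenum and pancreas, was at 0 and 0.439 CPM there, against 23.4 to 39.0 CPM in the other E12 groups. These genes were picked after their values were seen. Results that rest on these libraries are given as those of the libraries labelled E12 hindstomach, and without them the 24 calls between organs and 16 between stages that involve other groups were all kept. The E16 forestomach libraries held the largest shares of mesenchyme and muscle and of blood and immune markers. The 12 mesenchyme and muscle markers made up 2.76% to 3.29% of their counts against 0.165% to 0.183% in E16 small intestine and 0.917% to 0.955% in E16 hindstomach. Pancreas markers, at 0.00519% to 0.00827%, and neuron and glia markers, at 0.00333% to 0.00417%, were lower there than in E16 hindstomach (0.195% to 0.225% and 0.054% to 0.0545%). The 12 blood and immune markers made up 1.57% to 2.0% of E16 forestomach counts (the 6 globin genes of that list were at 0 in all 15 groups), and the 5 epithelium markers 0.157% to 0.162%, against 0.839% to 0.862% in E16 small intestine. Without these libraries, the 20 calls between organs and 13 between stages that involve other groups were all kept.

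Of the 4 groups labelled knockout, Cdx2 itself fell in the group with deletion at E10 and was not called lower in the others. Its level was 16.7, 13.9 and 26.7 CPM there, against 184 and 204.5 CPM in E16 WT small intestine (log2 fold change −3.40, SE 0.27, adjusted p = 3.04e-09). In the libraries labelled deleted at E13 it was 197.6 and 202 CPM (log2 fold change 0.05, SE 0.28, adjusted p = 0.905). The libraries labelled deleted at E15 had 359 and 344 CPM, against 185 and 192 CPM in E18 WT (0.90, SE 0.28, adjusted p = 0.0206). In the adult libraries labelled knockout it was 729.7 and 696 CPM, against 338 and 343 CPM in adult WT (0.93, SE 0.12, adjusted p = 0.00731). Cdx2 was thus higher in both, below the fold minimum. Reads counted over a whole gene do not show whether the deleted exon was among them, so the labels of the last 3 groups are neither borne out nor contradicted by these counts, and they are written as labels throughout.

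Each of the 6 genes was read in every group. Gata4 was highest in the libraries labelled deleted at E13 (339.7 CPM ± 18 SD, n = 2) and in E14 hindstomach (329.9 ± 12.5), 2 groups whose values overlapped. With total counts in place of TMM scaling the former was at 262 CPM, below E14 hindstomach (451.3), E12 forestomach (342.7), E14 small intestine (319.3) and E16 hindstomach (302). Its 4 lowest groups were E14 forestomach (54.2 ± 1.77), deletion at E10 (50.6 ± 17.2, n = 3), E16 forestomach (16.7 ± 4.38) and the libraries labelled E12 hindstomach (0.445 ± 0.133), which had only 12 and 19 reads of Gata4. Outside these 4 groups it lay between 85.8 and 339.7 CPM, though with total counts adult labelled knockout ileum (56.1) lay below E14 forestomach (73.2). Adult WT (199.8 ± 25.1) and adult labelled knockout ileum (141.5 ± 8.28) had the most Gata5, followed by E18 small intestine (98.7 ± 3.37), and these 3 groups did not overlap. The adult libraries were made with another kit, so their place in this order, and in that of Foxa1, was not tested. The lowest Gata5 level was that of E16 forestomach (2.26 ± 1.95), from 6 and 25 reads.

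Gata6 was the member with the fewest calls, 9 of its 26 tests. It was highest in E18 small intestine (191 CPM ± 8.20), though with total counts E16 small intestine was above it (146.9 against 142.4), and lowest in E14 (17.2 ± 2.00) and E16 forestomach (16.9 ± 9.04), which overlapped, and every group other than the 3 of forestomach lay between 67.7 and 191 CPM. Foxa1 was highest in the libraries labelled E12 hindstomach (461 ± 18), then in E12 forestomach (421 ± 27.2), and lowest in adult WT (32.2 ± 7.55), the libraries labelled deleted at E13 (31.7 ± 0.587) and E18 small intestine (27.2 ± 1.33). The 6 groups of E12 and E14 held the 6 highest Foxa1 means under TMM; with RLE scaling and with total counts E16 hindstomach (254.6 and 321.6) passed E14 small intestine (228.3 and 319.5). Foxa2 had 18 calls in 26 tests, against 17 for Gata5. This order turns without either E12 forestomach library, since calls of Foxa2 at E12 are then lost. Foxa2 ran from 120.5 ± 7.71 CPM in E12 forestomach to 1.76 ± 0.384 in E16 small intestine and 1.03 ± 1.05 in E16 forestomach, and the last 2 overlapped. Foxa3 was highest with deletion at E10 (71.7 ± 15.1, n = 3), ahead of E16 (55.3 ± 2.45) and E14 hindstomach (55.3 ± 3.19), and lowest in E18 small intestine (6.64 ± 0.668) and E16 forestomach (1.46 ± 0.606). The group with deletion at E10 was not called against E16 hindstomach (log2 fold change 0.35, adjusted p = 0.0787), and with total counts its Foxa3 was at 45.6 CPM, below E14 (75.7) and E16 hindstomach (71.2), E14 small intestine (54.7) and the libraries labelled E12 hindstomach (52.9).

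**Figure D1:**
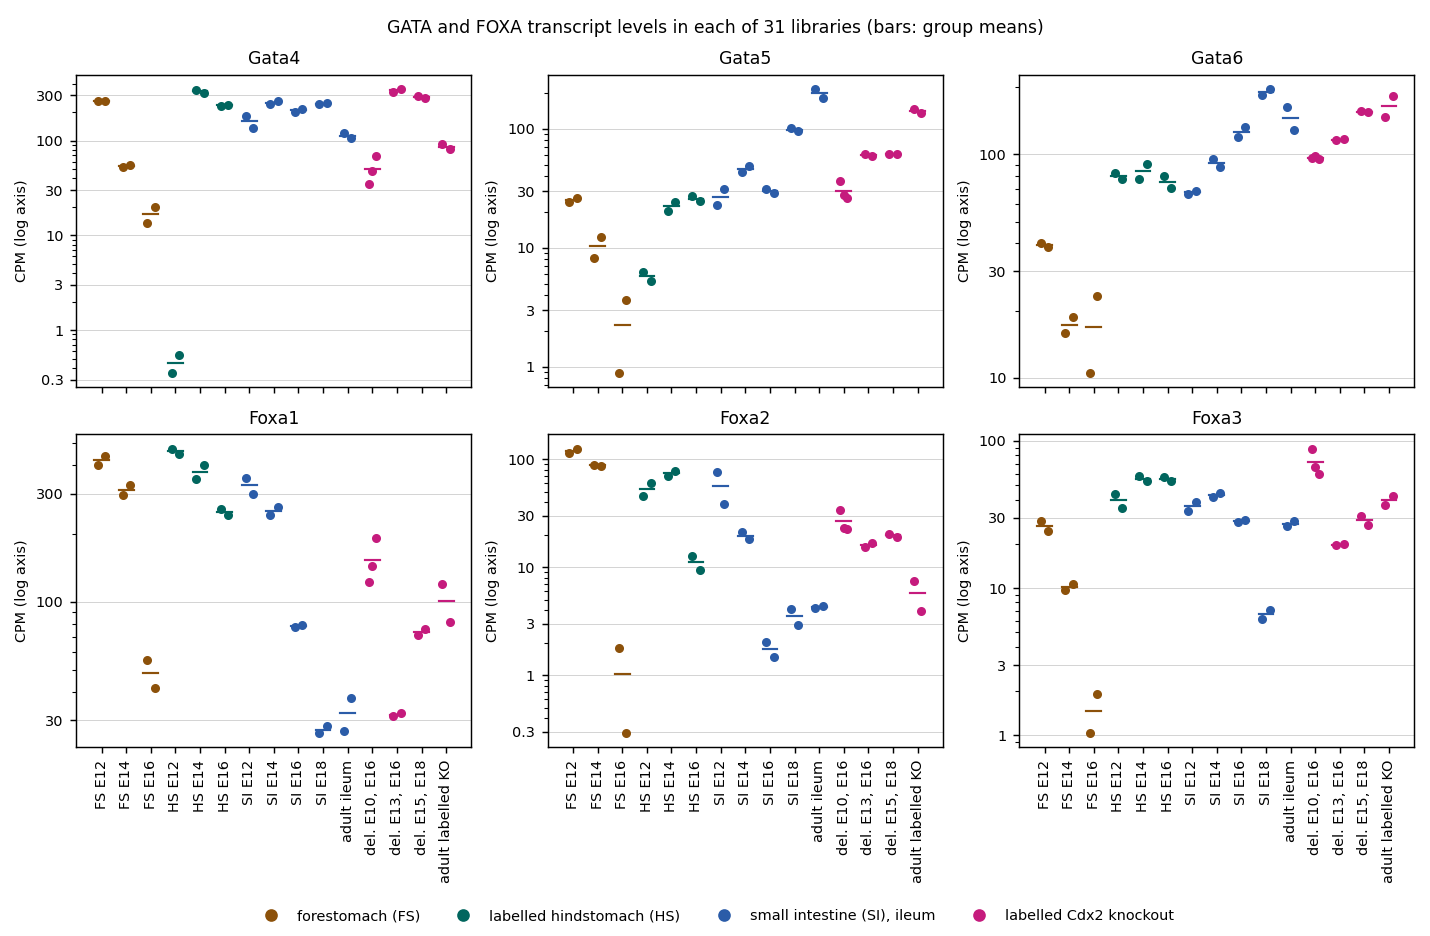
Level of each gene in each of the 31 libraries, in CPM on a log axis, with 1 point per library and a bar at each group mean; columns are the 15 groups, coloured by organ, and the 4 groups labelled Cdx2 knockout are in pink. Gata4 is at 0.351 and 0.539 CPM in the libraries labelled E12 hindstomach alone, and all 6 genes sit low in E16 forestomach.

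Most of these genes fell in forestomach between E12 and E16. From E12 to E14 the 3 GATA genes and Foxa3 fell while Foxa1 and Foxa2 were not called, and from E14 to E16 Foxa1, Foxa2, Foxa3, Gata4 and Gata5 fell. In these bulk libraries fewer cells of a type and less RNA per cell cannot be told apart. Gata4 was at 264 and 259.6 CPM at E12, 52.9 and 55.4 at E14 and 13.6 and 19.8 at E16, and no value of a stage reached the next. Its log2 fold change was −2.27 (SE 0.22, adjusted p = 5.45e-07) over the first step and −1.70 (SE 0.23, adjusted p = 6.49e-06) over the second. Foxa3 followed the same course, from 28.5 and 24.3 CPM through 9.67 and 10.7 to 1.03 and 1.89 CPM, the last from 7 and 13 reads. Gata5 went from 24.4 and 26.3 CPM through 8.21 and 12.4 to 0.887 and 3.64 CPM. Gata6 fell over the first step, from 40.1 and 38.5 to 15.8 and 18.6 CPM (log2 fold change −1.19, SE 0.20), and its 10.5 and 23.3 CPM at E16 straddled the E14 values.

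Foxa1 and Foxa2 were called over the second step and not over the first; the difference between the steps was not tested. Foxa2 was at 115 and 126 CPM at E12 and 89.4 and 87.0 CPM at E14, and then at 1.77 and 0.291 CPM at E16, which is 12 and 2 reads. The log2 fold change from E14 to E16 was −6.42 (SE 0.46, adjusted p = 1.83e-09), the largest of any member between stages outside the libraries labelled E12 hindstomach. Foxa1 went from 295 and 328 CPM at E14 to 55.1 and 41.8 CPM at E16 (log2 fold change −2.69, SE 0.17). Thus 4 of 6 members were called lower from E12 to E14, against 12.7% of all genes called in either direction, and 5 of 6 lower from E14 to E16, against 37.7%. Single E16 libraries set some of these sizes: the log2 fold change of Foxa2 was −8.22 without replicate 1 and −5.65 without replicate 2, and that of Gata5 −1.504 and −3.55. Over the second step Epcam, the surface protein used to sort the cells, went from 766 and 786 CPM to 106.5 and 131 CPM, and the summed epithelium markers from 0.465% to 0.473% down to 0.157% to 0.162% of counts. The mesenchyme and muscle markers went from 0.0172% to 0.0179% up to 2.76% to 3.29%, the blood and immune markers from 0.000352% to 0.000531% up to 1.57% to 2.0%, and the liver markers from 0.00217% to 0.0025% down to 0.000402% to 0.000505%. Among genes read to check the labels, mean Trp63 went from 434 to 78.2 CPM over this step and Sox2 from 163 to 36.6. Barx1 went from 2.53 up to 368 CPM. The part of these genes and shares in the fall was not tested. Over the first step the epithelium markers were at 0.428% to 0.43% and then 0.465% to 0.473% of counts. The mesenchyme and muscle markers were at 0.0154% to 0.0159% and then 0.0172% to 0.0179%. The liver markers went from 0.0168% to 0.0174% down to 0.00217% to 0.0025% of counts over that step, in which the GATA genes and Foxa3 fell, and what part this had was not tested.

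In small intestine no GATA gene was called in either step between E12 and E16, while Foxa2 fell at both and Foxa1 at the second. Gata4 was at 184 and 137 CPM at E12, 241 and 263 at E14 and 202 and 216 at E16. Gata6 was at 66.5 and 68.8, then 87.9 and 95.8, then 119.7 and 133 CPM, so that each stage lay above the one before, with log2 fold changes of 0.43 (adjusted p = 0.0991) and 0.48 (adjusted p = 0.0519). Gata5 had a log2 fold change of 0.765 from E12 to E14 and passed the minimum without E12 replicate 2 (1.001). Foxa2 fell at both steps, from 75.8 and 38.6 CPM to 21.2 and 18.3 and then to 2.03 and 1.49 CPM. Its log2 fold change was −1.55 (SE 0.31, adjusted p = 0.00112) and then −3.46 (SE 0.37, adjusted p = 5.71e-07). The first of these calls was lost without E12 replicate 1 (log2 fold change −0.97) and when only the 4 libraries compared were fitted (adjusted p = 0.0844). Foxa1 went from 353 and 300.1 CPM at E12 to 242 and 262 at E14, which was not called, and to 77.2 and 78.8 at E16 (log2 fold change −1.67, SE 0.16, adjusted p = 1.96e-07). From E12 to E14, 1 of 6 members was called and 16.2% of all genes, and from E14 to E16, 2 of 6 and 25.6%. Over the second step the epithelium markers went from 0.428% to 0.436% of counts to 0.839% to 0.862%, the mesenchyme and muscle markers from 0.0422% to 0.0483% to 0.165% to 0.183%, and the blood and immune markers from 0.00147% to 0.0015% to 0.0394% to 0.0396%. The pancreas markers went from 0.0224% to 0.0239% to 0.0545% to 0.0577%, and the liver markers went from 0.0276% to 0.0306% to 0.0136% to 0.0153%. Over the first step the liver markers went from 0.0339% to 0.0355% to 0.0276% to 0.0306%, the pancreas markers from 0.0292% to 0.0319% to 0.0224% to 0.0239% and the epithelium markers from 0.328% to 0.336% to 0.428% to 0.436%. What part these shares had in the FOXA falls was not tested.

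From E16 to E18 Foxa1 and Foxa3 fell in small intestine and Gata5 rose. Foxa3 went from 28.1 and 29.0 CPM to 6.17 and 7.11 (log2 fold change −2.08, SE 0.20, adjusted p = 6.43e-08). Foxa1 went from 77.2 and 78.8 to 26.3 and 28.1 CPM (log2 fold change −1.505, SE 0.17, adjusted p = 3.07e-07). Foxa2 stayed low at 4.11 and 2.92 CPM against 2.03 and 1.49 CPM at E16; its log2 fold change of 0.99 (adjusted p = 0.0392) missed the fold minimum, which it passed with RLE scaling (1.02), in DESeq2 (1.025) and without E18 replicate 2 (1.24). Gata5 went from 31.1 and 29.2 to 101 and 96.4 CPM (log2 fold change 1.72, SE 0.28, adjusted p = 2.74e-05). Its groups did not overlap. Thus 3 of 6 members were called at this step, against 42.1% of all genes. The E16 cells were released with trypsin and sorted for Epcam, and the E18 cells were released from villi with EDTA, so stage and preparation cannot be told apart here. At E18 the mesenchyme and muscle markers were 0.00263% to 0.00278% of counts, the 6 pancreas markers 0.000727% to 0.00101%, the liver markers 0.00281% to 0.00285% and the epithelium markers 0.559% to 0.572%. At E16 these shares were 0.165% to 0.183%, 0.0545% to 0.0577%, 0.0136% to 0.0153% and 0.839% to 0.862%, and their part in the changes was not tested. Levels under other scalings moved most in this comparison among WT stages, since total counts in place of TMM shifted the median gene by −0.65 on the log2 scale.

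Hindstomach from E14 to E16 changed at 1 member, Foxa2, and 22.0% of all genes were called. Foxa2 went from 70.8 and 78.7 CPM to 12.9 and 9.50 CPM (log2 fold change −2.74, SE 0.33, adjusted p = 4.22e-06). Gata4 (338.7 and 321 CPM, then 234 and 235), Gata5 (20.2 and 24.4, then 27.4 and 24.7), Gata6 (77.3 and 90.4, then 80.3 and 70.6) and Foxa3 (57.6 and 53.1, then 57.1 and 53.6) were not called. Foxa1 went from 348 and 402 to 257 and 243 CPM, a log2 fold change of −0.58 (adjusted p = 0.00786) below the fold minimum. Over this step the mesenchyme and muscle markers went from 0.0162% to 0.0174% of counts to 0.917% to 0.955%, the blood and immune markers from 0.000264% to 0.000329% to 0.189% to 0.251%, and the 5 neuron and glia markers from 0.00296% to 0.00317% to 0.054% to 0.0545%. The epithelium markers went from 0.508% to 0.519% to 0.751% to 0.782%, the pancreas markers from 0.0873% to 0.0907% to 0.195% to 0.225% and the endothelium markers from 0.000156% to 0.000173% to 0.0132% to 0.0184%. The liver markers were lower at E16, at 0.00819% to 0.00886% against 0.015% to 0.016%, and the part of these shares in the result was not tested. From the libraries labelled E12 hindstomach to E14 hindstomach 2 of 6 members were called, against 17.2% of all genes. Gata4 was at 0.351 and 0.539 CPM in the former (log2 fold change 9.52, SE 0.33) and Gata5 at 6.31 and 5.31 CPM (log2 fold change 1.94, SE 0.28). The former libraries go against their label, as described, so tissue and stage cannot be told apart in these values.

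**Figure D2:**
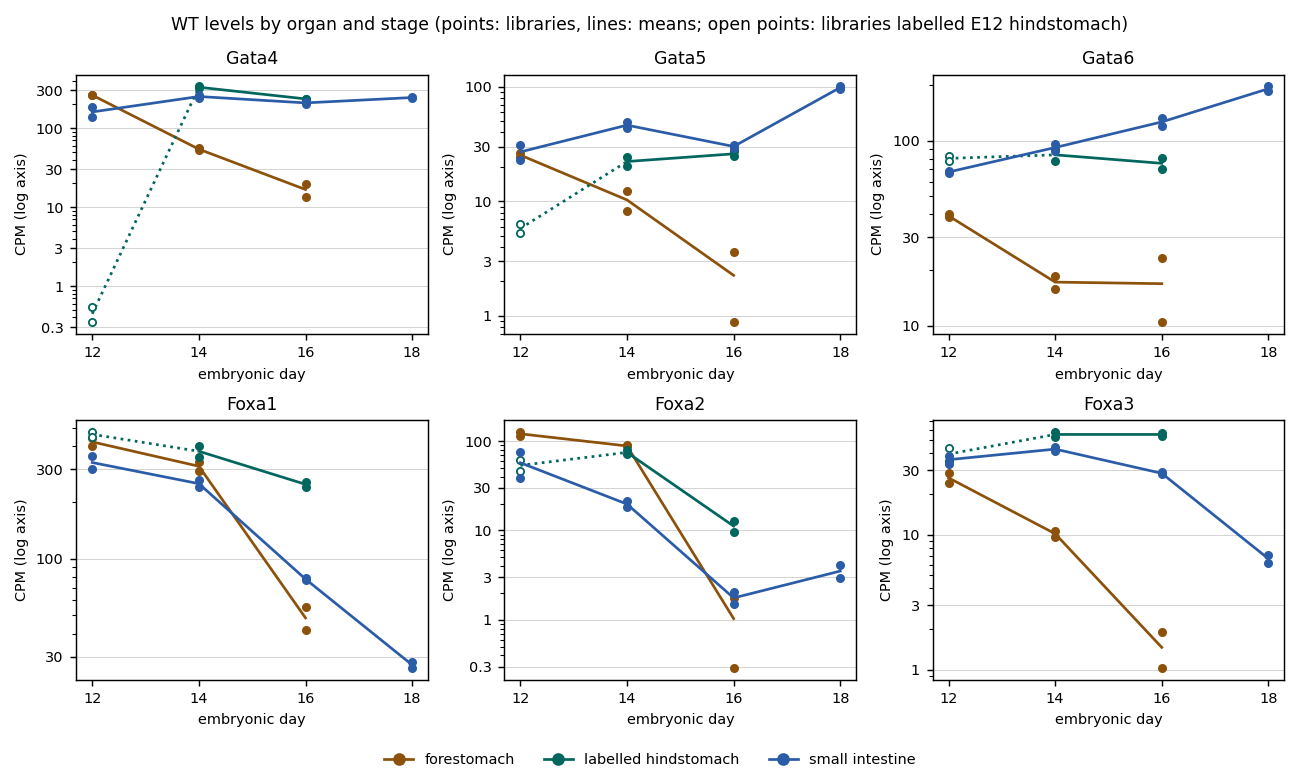
WT levels in CPM on a log axis against embryonic day, with 1 point per library and lines through the means of forestomach, hindstomach and small intestine; open points and dotted lines are the libraries labelled E12 hindstomach. The forestomach lines of Gata4, Gata5 and Foxa3 drop at each step, and those of Foxa1 and Foxa2 drop mainly after E14.

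At E12, 1 of 6 members was called between forestomach and small intestine, and 2 more had an adjusted p under 0.05 below the fold minimum. Forestomach had Gata4 at 264 and 259.6 CPM against 184 and 137 in small intestine (log2 fold change 0.70, adjusted p = 0.029) and Gata6 at 40.1 and 38.5 against 66.5 and 68.8 CPM (−0.80, adjusted p = 0.0086), both below the fold minimum. Foxa2 was the 1 called member, at 115 and 126 CPM in forestomach against 75.8 and 38.6 in small intestine (log2 fold change 1.06, SE 0.31, adjusted p = 0.023), and 10.1% of all genes were called. That call was lost without forestomach replicate 1 (1.13, adjusted p = 0.0637), without forestomach replicate 2 (0.996, adjusted p = 0.121), without small intestine replicate 2 (0.66, adjusted p = 0.1) and when only these 4 libraries were fitted (adjusted p = 0.187). The epithelium markers were 0.428% to 0.43% of forestomach counts against 0.328% to 0.336% in small intestine, the pancreas markers 0.0109% to 0.0122% against 0.0292% to 0.0319% and the liver markers 0.0168% to 0.0174% against 0.0339% to 0.0355%, and the part of these shares was not tested.

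Comparisons with the libraries labelled E12 hindstomach gave 4 of 6 members called for forestomach over them, against 7.11% of all genes, and 2 of 6 for them over small intestine, against 9.28%. Gata4 carried the largest differences, at 9.18 (SE 0.33) and −8.48 (SE 0.32) on the log2 scale. Gata5 was 4.35-fold higher in forestomach and 4.67-fold higher in small intestine than in these libraries. Foxa2 was higher (log2 fold change 1.17, SE 0.31) and Gata6 lower (−1.04, SE 0.19) in forestomach than in them. The call of Gata6 was lost without replicate 1 of the labelled hindstomach (−0.99), and that of Foxa2 without the same library (0.975) or without either forestomach library (adjusted p = 0.0589 and 0.108). Gata5 against small intestine lost its call when only the 4 libraries were fitted (adjusted p = 0.0797). The pancreas markers were 0.000479% to 0.000535% of counts in these libraries, against 0.0109% to 0.0122% in forestomach and 0.0292% to 0.0319% in small intestine, and the liver markers 0.0437% to 0.0755%, against 0.0168% to 0.0174% and 0.0339% to 0.0355%. The part of both was not tested.

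At E14 the forestomach stood apart in the GATA genes and Foxa3, while Foxa1 and Foxa2 were not called between the stomach regions. Against hindstomach 4 of 6 members were called, all lower, and 8.46% of all genes. Gata4 was at 52.9 and 55.4 CPM against 338.7 and 321 (log2 fold change −2.61, SE 0.22, adjusted p = 1.16e-07), Gata6 at 15.8 and 18.6 against 77.3 and 90.4 (−2.29, SE 0.20) and Foxa3 at 9.67 and 10.7 against 57.6 and 53.1 (−2.45, SE 0.20). Gata5 differed less (−1.12, SE 0.28, adjusted p = 0.00974), and its call was lost without forestomach replicate 1 (−0.85) or hindstomach replicate 2 (−0.98). Foxa1 (log2 fold change −0.27, adjusted p = 0.366) and Foxa2 (0.23, adjusted p = 0.778) were not called.

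Against small intestine at E14, 5 of 6 members were called in forestomach, beside 11.9% of all genes. The same GATA genes and Foxa3 were lower, by log2 fold changes of −2.08 to −2.41. Foxa2 was higher, at 89.4 and 87.0 CPM against 21.2 and 18.3 (2.16, SE 0.32, adjusted p = 5e-05). Hindstomach also held more Foxa2 than small intestine, with 70.8 and 78.7 CPM (log2 fold change 1.93, SE 0.31, adjusted p = 0.000328). This and Gata5 were the 2 called members between them, against 6.83% of all genes. Gata5 was lower in hindstomach (log2 fold change −1.05, SE 0.27, adjusted p = 0.015), and that call was lost without any 1 of the 4 libraries, at adjusted p of 0.0571 to 0.179, and with total counts in place of TMM scaling (log2 fold change −0.945). The pancreas markers were 0.0132% to 0.0141% of counts in E14 forestomach, 0.0873% to 0.0907% in hindstomach and 0.0224% to 0.0239% in small intestine. The liver markers were 0.00217% to 0.0025%, 0.015% to 0.016% and 0.0276% to 0.0306% in the same order, and the part of both in these differences was not tested.

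At E16 all 6 members were called lower in forestomach than in hindstomach, where 20.1% of all genes were called in either direction. Foxa3 differed most, at 1.03 and 1.89 CPM against 57.1 and 53.6 CPM (log2 fold change −5.25, SE 0.27, adjusted p = 7.72e-11). Gata4 followed at 13.6 and 19.8 against 234 and 235 CPM (−3.82, SE 0.24) and Gata5 at 0.887 and 3.64 against 27.4 and 24.7 CPM (−3.53, SE 0.35). The log2 fold changes of Foxa2, Foxa1 and Gata6 were −3.45 (SE 0.47), −2.38 (SE 0.17) and −2.17 (SE 0.21). No pair of groups overlapped in any member, though the share of all genes without overlap was not computed. Over the 4 libraries left out in turn, the log2 fold change of Gata5 ran from −4.89 to −2.85, that of Foxa2 from −5.25 to −2.67 and that of Gata6 from −2.87 to −1.70, and every call was kept. That of Foxa3 ran from −5.75 to −4.875, so its range overlapped that of Foxa2.

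Against small intestine at E16, 4 of 6 members were called lower in forestomach, beside 35.0% of all genes. Gata4 (−3.67), Gata5 (−3.75), Gata6 (−2.92) and Foxa3 (−4.30) were called. The Gata5 value ran from −5.11 to −3.07 and the Gata6 value from −3.62 to −2.46 over the libraries left out in turn. Foxa1 had a log2 fold change of −0.71 (adjusted p = 0.00146) below the fold minimum, and Foxa2 was low in both organs, with 12 and 2 reads in forestomach and 43 and 29 in small intestine (−0.80, adjusted p = 0.249). Without forestomach replicate 1 the Foxa2 difference was called (−2.60, adjusted p = 0.0255). Epcam stood at 106.5 and 131 CPM in E16 forestomach, 379 and 398 in hindstomach and 1205 and 1212 in small intestine, and its part in these differences was not tested. Nor was that of the pancreas markers, at 0.00519% to 0.00827%, 0.195% to 0.225% and 0.0545% to 0.0577% of counts in that order, or of the liver markers, at 0.000402% to 0.000505%, 0.00819% to 0.00886% and 0.0136% to 0.0153%.

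Between hindstomach and small intestine at E16 Foxa1 and Foxa2 were called, both higher in hindstomach, and no GATA gene was. Foxa1 was at 257 and 243 CPM in hindstomach against 77.2 and 78.8 in small intestine (log2 fold change 1.67, SE 0.16, adjusted p = 2.02e-07). Foxa2 was at 12.9 and 9.50 against 2.03 and 1.49 CPM (2.65, SE 0.37, adjusted p = 1.38e-05). Foxa3 was at 57.1 and 53.6 against 28.1 and 29.0 CPM, a log2 fold change of 0.945 (adjusted p = 0.000648) just under the fold minimum, which it passed with total counts (1.10). Gata4 (0.16, adjusted p = 0.586) and Gata5 (−0.23, adjusted p = 0.54) were not called, and Gata6 was lower in hindstomach at −0.75 (adjusted p = 0.0046) without reaching the minimum. So 2 of 6 members were called, against 25.7% of all genes. The pancreas markers were 0.195% to 0.225% of hindstomach counts against 0.0545% to 0.0577% in small intestine, the neuron and glia markers 0.054% to 0.0545% against 0.00487% to 0.0052%, and the mesenchyme and muscle and the blood and immune shares were also higher, as given above. What part these had was not tested.

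**Figure D3:**
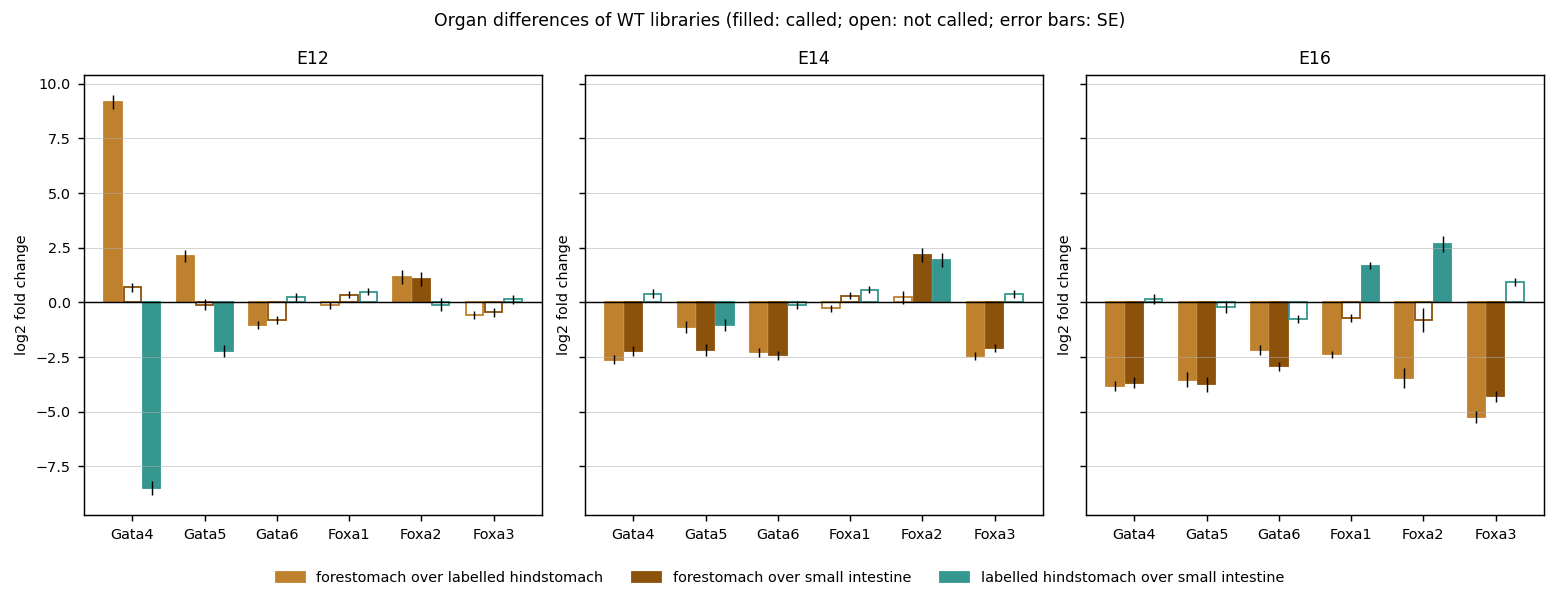
Log2 fold changes between organs of WT libraries at E12, E14 and E16, as bars from 0 with the SE as error bars; filled bars passed the adjusted p and the fold minimum and open bars did not. Forestomach bars point down for the GATA genes and Foxa3 at E14 and for nearly all members at E16, and the longest bars at E12, of 9.18 and −8.48, are those of Gata4 against the libraries labelled hindstomach.

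Whether an organ difference changed between E12 and E16 was tested directly as the difference of the log2 fold changes. For forestomach over small intestine all 6 members were called, each lower at E16 than at E12, beside 30.8% of all genes. The change was −4.36 (SE 0.32) for Gata4, −3.85 (SE 0.33) for Foxa3, −3.65 (SE 0.45) for Gata5, −2.13 (SE 0.29) for Gata6, −1.86 (SE 0.62) for Foxa2 and −1.07 (SE 0.23) for Foxa1. The last 2 were the least stable. Foxa2 lost its call without E12 forestomach replicate 2 (adjusted p = 0.0506), without E16 forestomach replicate 2 (−1.09, adjusted p = 0.198) and without E16 small intestine replicate 1 (adjusted p = 0.0981), and reached −3.66 without E16 forestomach replicate 1. Foxa1 fell below the fold minimum with RLE scaling and in DESeq2 (both −0.90), without E12 small intestine replicate 2 (−0.95) and without E16 forestomach replicate 2 (−0.89). Gata5 ran from −5.01 to −2.97 and Gata6 reached −2.82 without E16 forestomach replicate 2. Epcam was at 793.5 to 802 CPM in E12 forestomach and 791 to 808 in E12 small intestine. At E16 it was at 106.5 to 131 and 1205 to 1212 CPM. What part this had in the changes was not tested.

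The other interactions include the libraries labelled E12 hindstomach. Epcam was at 690 to 842 CPM in these and at 379 to 398 CPM in E16 hindstomach, and its part was not tested. All 6 members were called lower for forestomach over hindstomach, with changes from −13.0 (Gata4) to −1.13 (Gata6), beside 20.2% of all genes. For hindstomach over small intestine 4 of 6 were called, beside 20.3%: Gata4 (8.64), Foxa2 (2.75), Gata5 (2.00) and Foxa1 (1.17), all higher at E16. Gata6 in the first of these lost its call without E16 forestomach replicate 1 (−0.67), with RLE scaling (−0.937) and in DESeq2 (−0.936), and was at −1.83 without replicate 2. Gata5 there ran from −7.01 to −4.97 and Foxa2 from −6.42 to −3.84 without 1 of the E16 forestomach libraries. In the second, Gata6 was at −0.995 (adjusted p = 0.0113) and passed the minimum with RLE scaling and in DESeq2 (both −1.023), and without any 1 of E12 labelled hindstomach replicate 2, E12 small intestine replicate 2, E16 hindstomach replicate 1 or E16 small intestine replicate 1, at −1.01 to −1.09.

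With deletion at E10 Gata4 fell in small intestine at E16, Foxa2 and Foxa3 rose, and Gata5 and Gata6 were not called. Gata4 was at 34.9, 47.9 and 69.1 CPM against 202 and 216 in WT (log2 fold change −2.09, SE 0.19, adjusted p = 1.28e-08). Foxa2 was at 34.3, 23.1 and 22.8 CPM against 2.03 and 1.49 (3.89, SE 0.36, adjusted p = 1.57e-08), and Foxa3 at 88.7, 66.3 and 60.0 CPM against 28.1 and 29.0 (1.30, SE 0.18, adjusted p = 3.38e-06). Every deleted library lay outside the WT range for these genes. Foxa1, at 122, 144 and 192 CPM against 77.2 and 78.8, had a log2 fold change of 0.93 (adjusted p = 2.1e-05) and passed the fold minimum under RLE scaling (1.07), in DESeq2 (1.07), without deleted replicate 1 (1.07) and without deleted replicate 2 (1.05). Gata6 was at 96.1, 98.8 and 95.1 CPM against 119.7 and 133 (−0.42, adjusted p = 0.0432), and Gata5 at 36.8, 27.9 and 26.3 against 31.1 and 29.2 CPM (−0.02, adjusted p = 0.96).

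So 3 of 6 members were called with deletion at E10, and 51.5% of all genes. With total counts in place of TMM scaling the median gene of this comparison shifted by −0.845 on the log2 scale; Gata4 and Foxa2 kept their calls, Foxa3 lost its call (0.46) and Gata6 gained one (−1.27). The epithelium markers were 0.863% to 1.71% of counts with deletion and 0.839% to 0.862% in WT, and the mesenchyme and muscle markers 0.014% to 0.0203% and 0.165% to 0.183%. The liver markers were 0.0336% to 0.057% against 0.0136% to 0.0153% in WT, and the blood and immune markers 0.00462% to 0.0172% against 0.0394% to 0.0396%. The pancreas markers, at 0.00554% to 0.0429% against 0.0545% to 0.0577%, were spread widely over the 3 deleted libraries, and the neuron and glia markers were 0.000148% to 0.000578% against 0.00487% to 0.0052%. Their part in the result was not tested.

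In the libraries labelled deleted at E13 Foxa2 and Gata5 were higher and Foxa1 lower than in E16 WT small intestine. Foxa2 was at 15.5 and 16.7 CPM against 2.03 and 1.49 (log2 fold change 3.20, SE 0.37, adjusted p = 5.83e-07). Foxa1 was at 31.3 and 32.1 CPM against 77.2 and 78.8 (−1.28, SE 0.16, adjusted p = 2.03e-06), the opposite sign to its value with deletion at E10. In E18 WT small intestine Foxa1 was at 26.3 and 28.1 CPM. Gata5 was at 61.3 and 59.5 CPM against 31.1 and 29.2 (1.01, SE 0.27, adjusted p = 0.00386), a call that was lost without WT replicate 2 (0.97), without labelled knockout replicate 1 (0.99) and with total counts (0.41, adjusted p = 0.234), where the median gene shifted by −0.61. Gata4, at 327 and 352 CPM, was 0.71 higher on the log2 scale (adjusted p = 0.00748) and below the fold minimum. Gata6 (−0.11, adjusted p = 0.664) and Foxa3 (−0.52, adjusted p = 0.029) were not called; with total counts Foxa3 was (−1.12). Here 3 of 6 members and 39.5% of all genes were called. The blood and immune markers were 0.13% to 0.135% of counts against 0.0394% to 0.0396% in WT, and the epithelium markers 0.841% to 0.858% against 0.839% to 0.862%. The mesenchyme and muscle markers were 0.00535% to 0.00569% against 0.165% to 0.183%, and the pancreas markers 0.00444% to 0.00451% against 0.0545% to 0.0577%. Neuron and glia markers were 0.000871% to 0.000909% against 0.00487% to 0.0052%, and endothelium markers 0.000214% to 0.000284% against 0.00355% to 0.00415%. Mesothelium markers were 0.00115% to 0.00116% against 0.00717% to 0.00777%. Their part in the result was not tested.

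In the libraries labelled deleted at E15 the 3 FOXA genes were higher than in E18 WT small intestine and no GATA gene was called. Foxa1 was at 70.9 and 75.5 CPM against 26.3 and 28.1 (log2 fold change 1.43, SE 0.17, adjusted p = 2.44e-06). Foxa2 was at 20.4 and 19.3 against 4.11 and 2.92 CPM (2.52, SE 0.35, adjusted p = 2.02e-05), and Foxa3 at 31 and 26.9 against 6.17 and 7.11 CPM (2.13, SE 0.20, adjusted p = 2.65e-07). The groups did not overlap in any FOXA gene, though the share of all genes without overlap was not computed. Gata4 (295 and 282 against 241 and 247 CPM), Gata5 (62.1 and 61.8 against 101 and 96.4) and Gata6 (156 and 154 against 185 and 197) had log2 fold changes of 0.25, −0.67 and −0.29. The 3 calls of 6 stand beside 17.5% of all genes. All 3 were kept without each of the 4 libraries in turn. The epithelium markers were 0.996% to 1.06% of counts against 0.559% to 0.572% in WT, and the 5 liver markers 0.0438% to 0.0481% against 0.00281% to 0.00285%. The mesenchyme and muscle markers were 0.000677% to 0.000749% against 0.00263% to 0.00278%, and the blood and immune markers 0.0118% against 0.0529% to 0.0553%. Their part in the result was not tested.

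In adult ileum 1 of 6 members was called in the libraries labelled knockout, beside 20.4% of all genes. Foxa1 was at 120.1 and 81.2 CPM against 26.9 and 37.6 in WT (log2 fold change 1.505, SE 0.26, adjusted p = 0.0159). The call was lost without WT replicate 1 (1.28, adjusted p = 0.0509) or labelled knockout replicate 1 (1.25, adjusted p = 0.0685). Gata4 (−0.53, adjusted p = 0.0353) and Gata5 (−0.63, adjusted p = 0.0254) were lower without reaching the fold minimum, and their groups did not overlap. Gata6 (0.05, adjusted p = 0.869), Foxa2 (0.29, adjusted p = 0.576) and Foxa3 (0.40, adjusted p = 0.106) were not called. The liver markers were 0.0151% to 0.0438% of counts against 0.000459% to 0.00121% in WT, the neuron and glia markers 0.0234% to 0.0312% against 0.00054% to 0.0011%, the epithelium markers 1.7% to 1.91% against 0.783% to 1.06%, and the blood and immune markers 0.0304% to 0.0335% against 0.0667% to 0.225%. The pancreas markers were 0.00197% to 0.00436% against 0.000366% to 0.000382%. Their part in the result was not tested. The adult libraries were made with another kit than the embryonic ones (TruSeq against SMARTer), so their levels are not tested against the embryonic groups.

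**Figure D4:**
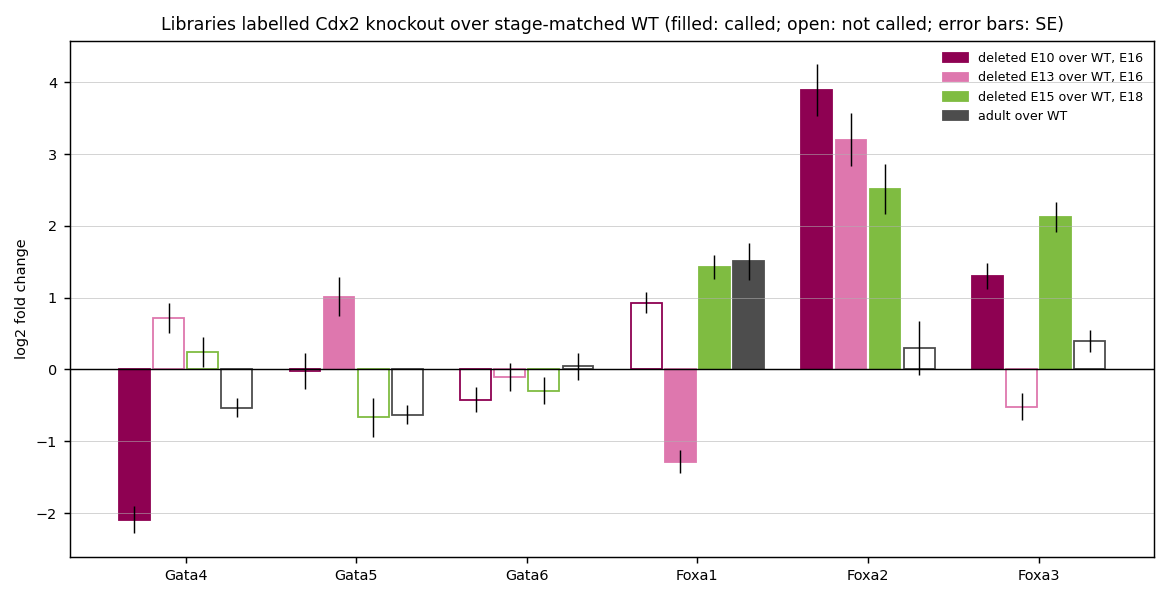
Log2 fold changes of the groups labelled Cdx2 knockout over stage-matched WT, as bars from 0 with the SE as error bars; filled bars passed the adjusted p and the fold minimum and open bars did not. Foxa2 is up in all 3 embryonic comparisons (2.52 to 3.89), and Gata4 is called only with deletion at E10 (−2.09).

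The group with deletion at E10 was compared directly with the libraries labelled deleted at E13, within a shared strain label. The group with deletion at E10 had less Gata4 (log2 fold change −2.81, SE 0.19, adjusted p = 1.43e-10) and more Foxa1 (2.22, SE 0.16, adjusted p = 2.49e-10) and Foxa3 (1.81, SE 0.18, adjusted p = 3.72e-08) than the libraries labelled deleted at E13. Gata5 was lower (−1.04, SE 0.24, adjusted p = 0.000872), a call lost with RLE scaling and in DESeq2 (−0.895 and −0.894), without deleted E10 replicate 2 (−0.97) and without replicate 3 (−0.94). Foxa2, high in both groups, was not called (0.69, adjusted p = 0.0435), nor was Gata6 (−0.31, adjusted p = 0.123). So 4 of 6 members were called, against 57.4% of all genes. The groups also differ in their Cre driver and in tamoxifen, which cannot be told apart from the day of deletion. Some genes of the libraries labelled deleted at E13 were nearer to E18 WT. Foxo4 was at 45.6 CPM there and 36.9 in E18 WT, against 1.80 with deletion at E10 and 0.591 in E16 WT. Foxk1 was at 60.8, 44.8, 11.3 and 5.58 CPM in that order. Foxq1 did not follow, at 379 CPM against 34.4 in E18 WT. These genes were picked after their values were seen, and a difference in preparation was not tested. The liver markers were 0.0336% to 0.057% of counts with deletion at E10 against 0.0138% to 0.0141% in the libraries labelled deleted at E13, the blood and immune markers 0.00462% to 0.0172% against 0.13% to 0.135%, the mesenchyme and muscle markers 0.014% to 0.0203% against 0.00535% to 0.00569%, and the pancreas markers 0.00554% to 0.0429% against 0.00444% to 0.00451%. Whether these shares had a part was not tested.

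Set against E16 hindstomach, the group with deletion at E10 had less Gata4 and more Foxa2. Gata4 was 4.75-fold lower (log2 fold change −2.25, SE 0.19, adjusted p = 4.35e-09) and Foxa2 2.36-fold higher (1.24, SE 0.30, adjusted p = 0.00121), and these were the 2 called members, beside 56.3% of all genes. Foxa1 was at −0.74 (adjusted p = 0.000159). The median gene was at −0.49 under TMM and shifted by −1.003 with total counts, the largest shift of the 26 comparisons, under which Foxa2 lost its call (0.25), Foxa1 was called lower (−1.74), and Gata5, Gata6 and Foxa3 turned from higher to lower (−0.79, −0.67 and −0.64). Gata4 stayed called lower. Against E16 forestomach all 6 members were called higher, beside 53.3% of all genes, from a log2 fold change of 1.58 (SE 0.22) for Gata4 to 5.60 (SE 0.26) for Foxa3. With total counts, which shifted the median gene by −0.80, Gata4 (0.78) and Foxa1 (0.84) fell below the fold minimum. Without 1 of the forestomach libraries, Gata5 ran from 3.04 to 5.08, Foxa2 from 3.91 to 6.48 and Gata6 up to 3.19. The mesenchyme and muscle markers were 0.014% to 0.0203% with deletion at E10, against 0.917% to 0.955% in hindstomach and 2.76% to 3.29% in forestomach. The liver markers were 0.0336% to 0.057%, against 0.00819% to 0.00886% and 0.000402% to 0.000505%, and the pancreas markers 0.00554% to 0.0429%, against 0.195% to 0.225% and 0.00519% to 0.00827%. Whether these had a part in the differences was not tested.

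Other regulators of gut endoderm (10 genes, among them the nuclear receptors Hnf4a and Hnf4g, the homeobox factor Pdx1, and the hedgehog ligands Shh and Ihh) were read from the same fits. In forestomach from E14 to E16, 1 was called higher and 8 lower, with a median log2 fold change of −2.07 against 0.00 over all genes, of which 37.7% were called. At E16 forestomach had 7 of 10 lower and 0 higher than hindstomach, where 20.1% of all genes were called. Of these Hnf4g was at 0 to 1.33 CPM against 18.8 to 24.1 (log2 fold change −5.03, SE 0.56) and Hnf4a at 1.18 to 6.55 against 97.8 to 118 CPM (−4.81, SE 0.46), while Pdx1 was at 0 in both forestomach libraries and at 7.14 and 8.76 CPM in hindstomach. With deletion at E10, 4 were higher and 4 lower than in WT small intestine, beside 51.5% of all genes. The foregut factor Sox2 was at 49.8 to 67.5 CPM against 0 and 0.755 (log2 fold change 7.22, SE 0.61), Pdx1 at 24.9 to 36.2 against 3.96 to 5.64 (2.59, SE 0.43) and Shh at 1.69 (SE 0.27) on the log2 scale. Hnf4a (−3.61, SE 0.33) and Hnf4g (−3.09, SE 0.29) were lower. In the libraries labelled deleted at E13 only Pdx1 (4.57, SE 0.48) and Klf5 (−1.64, SE 0.18) of the 10 were called, beside 39.5% of all genes, and in those labelled deleted at E15 Hnf4g (−1.18, SE 0.31) and Ihh (−1.13, SE 0.18), beside 17.5%.

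Of 5 proteins that partner GATA factors, or GATA and FOXA factors together, Zfpm1 (also called Fog1) went opposite ways: 20.5 to 57.2 CPM with deletion at E10 against 84.9 to 96.7 in WT (log2 fold change −1.38, SE 0.27) and 205 to 219 CPM in the libraries labelled deleted at E13 (1.24, SE 0.29). The latter also had more of the acetyltransferase gene Ep300 (2.31, SE 0.25) and the adaptor gene Ldb1 (1.28, SE 0.15). Ep300 was at 136 and Ldb1 at 48.7 CPM there, near the 130 and 45.1 CPM of E18 WT small intestine. In E16 WT they were at 27.7 and 20.2 CPM. What part a feature shared with the E18 libraries had was not tested. The median log2 fold change over the 5 genes was −0.01 with deletion at E10, against −0.10 over all genes. In the libraries labelled deleted at E13 it was 1.24, against −0.05. Among 22 other GATA and forkhead genes, 4 were higher and 11 lower with deletion at E10 (median −1.39 against −0.10), where 51.5% of all genes were called. In the libraries labelled deleted at E13, 4 were higher and 10 lower (−1.54 against −0.05), beside 39.5% of all genes. In E16 forestomach 11 were higher and 1 lower than in small intestine (median 1.06 against 0.00), beside 35.0%. The lower genes with deletion at E10 included Foxf1 (1.56 to 3.65 against 36.7 to 36.8 CPM, −3.85, SE 0.60) and Foxl1 (−3.98, SE 1.18), which are known from gut mesenchyme, and the higher genes Foxq1 (359 to 578 against 45.4 to 45.7 CPM, 3.42, SE 0.20). The largest called fall there was that of Gata2 (0 to 0.120 against 3.54 to 4.39 CPM, −6.92, SE 1.17). Foxe1 rose most, from 0 to between 0.360 and 2.05 CPM (7.82, SE 2.28). In E16 forestomach the largest change was that of Foxe1, at 8.72 to 8.88 CPM against 0 in small intestine (10.8, SE 2.34). Gata1 (4.51, SE 1.49), of the blood lineage, and Foxc1 (3.43, SE 1.17) were also higher. Foxf1 and Foxl1 were lower where the mesenchyme and muscle marker share was lower, and Gata1 and Foxc1 higher where the mesenchyme and muscle and the blood and immune shares were higher. Foxq1 and Foxe1 rose with deletion at E10, where both shares were lower than in WT. The part of these shares was not tested.

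Genes of the differentiated tissue were read beside the members. Of 8 genes of the proximal small intestine, a region for which Gata4 is known, 1 was higher and 4 lower with deletion at E10 (median log2 fold change −1.07 against −0.10 over all genes, 51.5% of which passed the thresholds), 3 higher and 1 lower in the libraries labelled deleted at E13 (0.26 against −0.05, 39.5%), 3 and 3 in those labelled deleted at E15 (−0.71 against 0.00, 17.5%) and 2 and 2 in adult ileum (0.71 against 0.01, 20.4%). Of 10 genes of secretory cells, in which Foxa1 and Foxa2 are known to act, 2 were higher and 6 lower with deletion at E10 (median −1.24, beside 51.5% of all genes). The counts were 2 and 4 in the libraries labelled deleted at E13 (−0.87, 39.5%) and 0 and 1 in those labelled deleted at E15 (−1.16, 17.5%). In adult ileum they were 0 and 3 of the 9 tested (−0.63, 20.4%). For the distal small intestine, 0 genes were higher and 3 of 5 tested lower with deletion at E10 (median −2.13), where 51.5% of all genes were called. In the libraries labelled deleted at E13 the counts were 1 and 0 (−0.11, 39.5% of all genes). They were 0 and 3 in those labelled deleted at E15 (−2.51, 17.5%) and 0 and 4 of 6 in adult ileum (−1.56, 20.4%). These counts describe the lists and are no test of the members' part in them.

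The members were also compared with each other and with all genes across the 13 embryonic group means. Within a family Pearson's r of log2 CPM was 0.81 for Gata5 and Gata6, 0.72 for Gata4 and Gata5 and 0.33 for Gata4 and Gata6, and 0.76 for Foxa1 and Foxa2, 0.58 for Foxa2 and Foxa3 and 0.555 for Foxa1 and Foxa3. It lay between −0.31 and 0.51 for a GATA gene with a FOXA gene. Without the libraries labelled E12 hindstomach, r was 0.72 for Gata4 and Gata6, and for Gata4 and Foxa3 it was 0.58, against 0.16 with them. The points share stages, strains and scaling, so these values are a description. Among 12200 genes with enough reads, the genes whose group means followed a member most closely were Prdm16 for Gata4 (r = 0.92), Rbm47 and Hnf4g for Gata5 (both 0.94), AA986860, Slc39a5 and Vil1, which encodes a brush border protein, for Gata6 (0.95, 0.95 and 0.93), 0610010F05Rik for Foxa1 (0.98), 9830147E19Rik for Foxa2 (0.94) and Sytl5 for Foxa3 (0.91). The next closest were Chgb and 5930403L14Rik for Gata4, Dnajc22 for Gata5, Tia1 and Mettl16 for Foxa1, Zfp51 and Rbm12b2 for Foxa2, and Afm and D3Ertd751e for Foxa3, at 0.872 to 0.965. These ranks include the libraries labelled E12 hindstomach and were not computed without them, which bears most on Gata4.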

How the data were processed

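RNA of sorted or EDTA-released gut epithelium was sequenced as 75 bp reads, per the labels' protocols. The authors deposited raw read counts per gene symbol, whole numbers with no normalization. STAR 2.5.3a, HTSeq and the mouse build mm9 are named in the submitters' processing notes, which do not give the strand setting, so overlapping or antisense genes could share reads. The 2 blank cells in each adult column were closed up, which moves the values below them. None of the 6 members lies below a blank. There were 2 columns that match no sample, and these were not used. Samples of the other assays in the series were not used here.

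The test was that of edgeR 4.0.16 under R 4.3.3 (TMM, filterByExpr with a minimum count of 10, quasi-likelihood test, Benjamini-Hochberg over all genes), with 27 embryonic libraries in 1 fit and 4 adult ones in another. There were 26 comparisons and 156 member tests. Standard errors are the log2 fold change over the square root of F. Tests were tried on simulated data. Alternatives were RLE scaling, total counts, no filter, DESeq2 1.42.0, no fold minimum, a replicate block, fits of only the groups compared, and leaving out each library or 2 doubtful groups. The 6 genes are all named, Cdx2 was read as the check of the labels, and from each list up to 3 called genes per direction with the largest change and groups that did not overlap were named, and for likeness 3 genes per member. Some genes that this rule names are not reported here. Members and lists were chosen with earlier results of these data known. Replicates differed by more than counting error, with a chi-square per degree of freedom of 1.53 to 132 over genes.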

Additional observations from a re-analysis of the deposited data

Results flagged for a closer look

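The difference between organs changed between E12 and E16 for the members below, by the test of the difference itself, given on the log2 scale as the E16 value minus the E12 value. For forestomach over small intestine the values were -4.36 (Gata4), -3.65 (Gata5), -2.13 (Gata6), -1.07 (Foxa1), -1.86 (Foxa2) and -3.85 (Foxa3). Of these, Foxa1 fell below the fold minimum with RLE scaling and in DESeq2 (both -0.896), without E12 small intestine replicate 2 (-0.95) and without E16 forestomach replicate 2 (-0.89). Foxa2 ran from -3.66 to -1.09 without 1 library and lost its call without E12 forestomach replicate 2, E16 forestomach replicate 2 or E16 small intestine replicate 1. For forestomach over hindstomach they were -13.00 (Gata4), -5.65 (Gata5), -1.13 (Gata6), -2.24 (Foxa1), -4.62 (Foxa2) and -4.66 (Foxa3), of which Gata6 lost its call with RLE scaling (-0.937), in DESeq2 (-0.936) and without E16 forestomach replicate 1 (-0.67). For hindstomach over small intestine they were 8.64 (Gata4), 2.00 (Gata5), 1.17 (Foxa1) and 2.75 (Foxa2). The comparisons with hindstomach include the libraries labelled E12 hindstomach, which hold Hoxa10 at 98.9 and 114 CPM and Gata4 at 12 and 19 reads. Mean Epcam was 798 CPM in forestomach, 766 in labelled hindstomach and 799 in small intestine at E12. At E16 it was 119, 388.5 and 1208 CPM in that order, and its part in these changes was not tested.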

How the results depend on the processing

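With 1 library removed at a time there were 28 to 31 calls between organs (30 with all), 17 to 19 between stages (18), 8 to 10 in the embryonic knockout comparisons (9), 11 to 12 between deletion at E10 and other groups (12), 14 to 17 interactions (16) and 0 to 1 in adult ileum (1). A group left with 1 library is assumed to vary like the others. With no fold minimum the counts were 37, 24, 13, 14 and 18 in the order of the first 5, and 3 in adult ileum. Of all 17239 genes, 1649 to 8253 were then called per comparison between organs and 4357 to 9607 between stages. In the embryonic knockout comparisons 5239 to 10871 were called, and 11183 to 11700 between deletion at E10 and other groups. For interactions it was 4344 to 6469, and in adult ileum 4298 of 12444. Some tests could not be made without a group: 6 of 12 remaining tests of deletion at E10 were called without E16 forestomach, and of 6 remaining interactions 6 were called without the libraries labelled E12 hindstomach and 4 without E16 forestomach. These 2 alternatives and total counts were chosen after seeing the data.

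With the replicate block the counts were 30, 18, 9, 1, 11 and 16 for organs, stages, embryonic and adult knockouts, deletion at E10 against other groups, and interactions. The correlation of same-numbered libraries was -0.152 to 0.097 over 23 comparisons, so the numbers pair nothing. The block took Gata5 between deletion at E10 and the libraries labelled deleted at E13 to -0.936, below the fold minimum.

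Sign changes were limited to values that were not called, and the cause was not tested. Gata6 in forestomach from E14 to E16 was 0.263 with RLE scaling and 0.264 in DESeq2, and Gata5 with deletion at E10 was 0.118 with RLE, 0.119 in DESeq2 and 0.078 with the replicate block. Foxa3 in hindstomach from E14 to E16 was -0.002 with no filter, -0.088 with total counts and -0.038 with only the groups compared. With total counts Gata4 and Gata6 from E16 to E18 were -0.415 and -0.045, and Gata5, Gata6 and Foxa3 with deletion at E10 against hindstomach -0.792, -0.669 and -0.641. Without 1 library, values ran from -0.302 to 0.129 for Gata5 in forestomach over small intestine at E12, and over labelled hindstomach against small intestine at E12 from -0.513 to 0.467 for Foxa2 and -0.032 to 0.278 for Foxa3. They ran from -0.047 to 0.176 for Gata6 in hindstomach from E12 to E14, -0.728 to 0.433 for Gata6 in forestomach and -0.057 to 0.063 for Foxa3 in hindstomach from E14 to E16, -0.19 to 0.109 for Gata5 with deletion at E10, and in adult ileum -0.131 to 0.243 for Gata6 and -0.193 to 0.658 for Foxa2. Depth limits Foxa2 in E16 forestomach, with 12 and 2 reads, and Gata5 there, with 6 and 25.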
